A study of Mus musculus with 24 samples.

Results

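Of the series' 24 libraries, 4 are described here: RAW-Blue macrophages given single-walled carbon nanotubes (SWNT) dispersed in an oligonucleotide, CpG-28 (SWNT/CpG, n = 2), against the same cells given nanotubes dispersed in a lipid-PEG construct, Lipid-PEG2000-OMe (SWNT/LP, n = 2). They were chosen by their labels alone, as the 2 RAW-Blue groups that received coated nanotubes with nothing further added, and every one is from sequencing run 2. Both groups had nanotubes at 10 µg/mL. The SWNT/CpG group also had CpG-28 at 10 µg/mL and no lipid-PEG, and the SWNT/LP group had lipid-PEG at 10 µg/mL and no oligonucleotide. The presence of CpG-28 and the absence of lipid-PEG therefore cannot be told apart in this comparison, and no group received an oligonucleotide without CpG. RAW-Blue is a mouse macrophage reporter line with a stably integrated secreted alkaline phosphatase reporter for NF-kB and AP-1. All libraries used are of this line or, in 1 comparison at the end, of K-Luc, a luciferase-expressing KR158B mouse glioma line. The cells were seeded in the chambers of a culture insert for a migration assay, adhered for 24 h, and were lysed after 47 to 50 h of treatment. The other RAW-Blue groups (n = 2 each) serve as context: untreated cells, which received water, cells with CpG-28 alone (CpG), and cells with CpG-28 and SWNT/LP added together but not joined (CpG+SWNT/LP), each ingredient at 10 µg/mL. Nothing in the labels ties the replicates to separate cultures, and the spread that the p-values rest on may therefore be technical.

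Unmethylated CpG motifs in DNA are recognised by TLR9, a receptor of endosomes and lysosomes that is carried there by UNC93B1, cut by lysosomal proteases and coupled to MYD88. In macrophages this pathway leads to NF-kB and AP-1, which drive genes of cytokines and chemokines, and to interferon regulatory factors, which drive type I interferon and the genes that interferon induces. Carbon nanotubes enter macrophages by endocytosis and phagocytosis, and a DNA strand wound around the tube is one way to keep the tube in suspension and to carry the DNA into the cell.

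With CpG-28 in place of lipid-PEG on the nanotube, genes of secreted inflammatory proteins and of effector enzymes rose. Lcn2, Csf3, Ccl7 and Nos2 were 85.2, 17.4, 10.3 and 7.19 times higher, in that order, and the chemokine receptor gene Cxcr4 was 5.95-fold lower. Of 11514 genes tested, 725 (6.3%) were called higher and 461 (4%) lower in SWNT/CpG, 1186 (10.3%) in all, by edgeR's quasi-likelihood F test at a Benjamini-Hochberg adjusted p under 0.05. The rises were larger than the falls: 205 genes were higher by over 2-fold against 70 lower, and 71 against 14 by over 4-fold. The median log2 fold change of all tested genes was -0.0078. No called gene had overlapping values in the 2 groups, which the test itself nearly requires with 2 libraries a group. The spread behind this test is shared by all 10 RAW-Blue libraries, and the untreated pair differed from each other far more than any other pair: a chi-square per gene between the 2 libraries of 45.8, against 1.99 for SWNT/LP, 4.78 for SWNT/CpG, 4.67 for CpG and 6.05 for CpG+SWNT/LP. With the untreated libraries left out of the fit, an alternative added after the data were seen, 2929 of 11467 genes were called (25.5%), 1520 higher (13.3%) and 1409 lower (12.3%), and 1182 of the 1186 were among them. With 1 of the 4 compared libraries left out the count lay between 390 (without SWNT/LP replicate 1) and 629 (without SWNT/CpG replicate 2). Below, the counts of most lists are followed by those without the untreated libraries in the fit. Their range over the 4 fits that each left out 1 compared library comes next. A call is said to be lost where such a fit did not give it. The all-gene shares to set beside these counts are 10.3% called in the main fit (6.3% higher, 4% lower) and 25.5% without the untreated libraries (13.3% higher, 12.3% lower). Gene levels are given in CPM, a gene's count scaled to a common library size, for replicate 1 and then replicate 2. They are not scaled to gene length, so levels of different genes are not comparable per molecule. Values after a gene name are its log2 fold change, SWNT/CpG minus SWNT/LP, ± standard error. The genes named include the largest changes, up to 4 per gene list by adjusted p, and further members that were chosen after their values were seen.

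**Figure D1:**
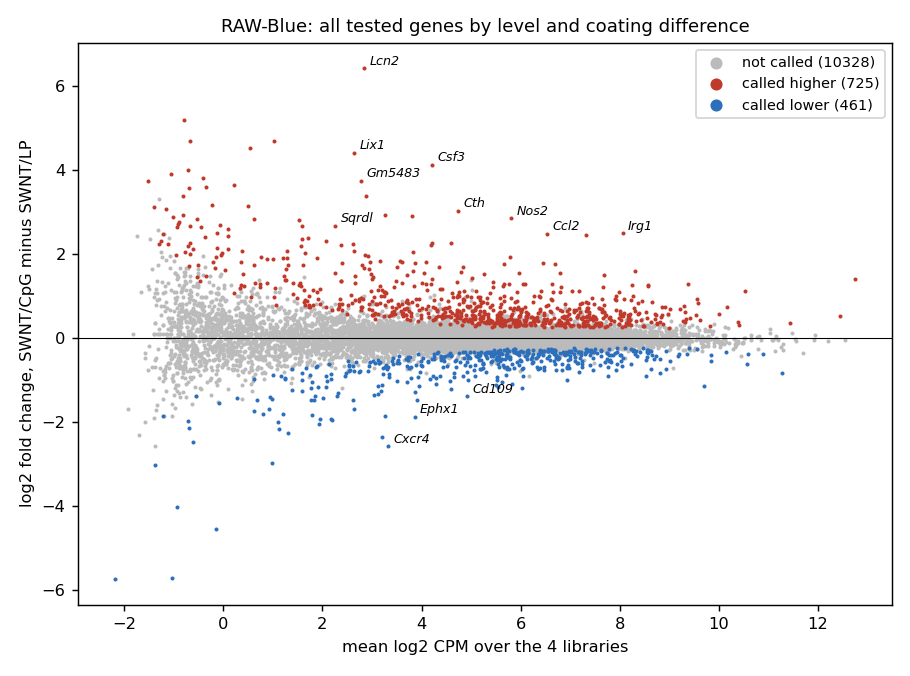
Each point is 1 of 11514 tested genes, with its mean log2 CPM over the 4 libraries on the horizontal axis and its log2 fold change, SWNT/CpG minus SWNT/LP, on the vertical axis. Red points are the 725 genes called higher and blue points the 461 called lower, and 205 red points against 70 blue points lie past 2-fold.

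Total counts were 20256833 and 19692801 for SWNT/LP and 17529218 and 20145859 for SWNT/CpG. At 1 CPM a gene has 18 to 20 counts in these libraries and a counting error of 22.2% to 23.9%. Macrophage genes were abundant in every library, with Csf1r at 1170 and 1186 CPM in SWNT/LP and 1073 and 1118 CPM in SWNT/CpG. The summed level of the 27 macrophage identity genes was 9090 to 9180 CPM in SWNT/LP and 10000 to 10600 CPM in SWNT/CpG. Cdh1, Ms4a1, Nkg7 and Olig2, which mark epithelial cells, B cells, cytotoxic lymphocytes and oligodendrocytes, had 0 counts in all 10 RAW-Blue libraries. Other markers were present. The 12 glial markers, Olig2 among them, summed to 131 to 134 CPM in SWNT/LP and 134 to 136 CPM in SWNT/CpG, with 8 and 6 members at 0. Among them Nes had 10.3 to 24.9 CPM over the 10 libraries. The 18 markers of fibroblasts, epithelium and endothelium summed to 2.68 to 3.45 CPM in SWNT/LP and 4.74 to 4.9 CPM in SWNT/CpG, with 4 members at 0 in each group. The 17 lymphocyte and granulocyte markers summed to 1.01 to 1.18 CPM and 1.85 to 2.2 CPM, with 10 and 8 members at 0. Pecam1 of the first of these 2 lists (1.35 ± 0.38, adjusted p = 0.049) and S100a8 of the second (3.38) were called higher. Pecam1 lost its call in every fit that left out 1 library (log2 fold change 1.17 to 1.54). S100a8 lost its call without SWNT/LP replicate 2 (2.75 to 4.58 over these fits). Over the 10 libraries they reached 1.17 and 1.57 CPM at most. The sums of both lists were higher with SWNT/CpG, and their part in the results was not tested. In bulk RNA, fewer cells of a type and less RNA per cell cannot be told apart.

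Cytokine genes were the first group to stand out. Of 20 tested inflammatory cytokine genes 8 rose and none fell (40% called, against 10.3% of all genes), with a median log2 fold change of 0.68. Csf3, which encodes the granulocyte growth factor G-CSF, had 4.63 and 4.25 CPM in SWNT/LP and 90.6 and 64.1 CPM in SWNT/CpG, a 17.4-fold rise (4.12 ± 0.23, adjusted p = 3.75e-05). The tumour necrosis factor gene Tnf had 236 and 257 against 630.4 and 556 CPM (1.26 ± 0.08, adjusted p = 3.75e-05). Csf3 was scarce in one group and plentiful in the other, whereas Tnf was already abundant with the lipid-PEG coating. Ebi3 (1.07 ± 0.11), a subunit of interleukin-27 and interleukin-35, and Osm (0.92 ± 0.15), the gene of oncostatin M, rose less. Il1b rose from 0.148 and 0.152 to 1.27 and 0.7 CPM (2.64 ± 0.64, adjusted p = 0.0276), so this interleukin-1 gene stayed near 1 CPM even in SWNT/CpG. The interleukin-1 antagonist gene Il1rn had 151 and 148 against 228 and 197 CPM (0.51 ± 0.10). The granulocyte-macrophage growth factor gene Csf2 had 3 counts in the 2 SWNT/LP libraries together and 78 in SWNT/CpG. Il6 was under the low-count filter with 3 counts against 25, and Il12b had 0 counts against 1. The list had 10 higher and 2 lower without the untreated libraries, and 3 to 8 higher and 0 lower with 1 library left out. The call of Osm was lost without SWNT/LP replicate 1 (adjusted p = 0.0579), and those of Il1b and Il1rn were lost in all 4 of these fits but that without SWNT/CpG replicate 2 (adjusted p up to 0.201 and 0.123).

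Chemokine genes had the highest median of the lists with over 10 tested genes. Of 11 tested, 8 rose and 1 fell (81.8% called, against 10.3% of all genes), with a median log2 fold change of 1.13. The list had 8 higher and 1 lower without the untreated libraries, and 6 to 7 higher and 1 lower with 1 library left out. Ccl2 and Ccl7, whose products attract monocytes through CCR2, had 39.7 and 38.5 and 1.92 and 2.58 CPM in SWNT/LP, in that order. In SWNT/CpG, Ccl2 had 246 and 192 CPM (2.48 ± 0.13, adjusted p = 1.26e-05) and Ccl7 had 26.2 and 20.4 CPM (3.37 ± 0.24, adjusted p = 5.1e-05). The neutrophil attractant Cxcl2 rose from 68.7 and 70.8 to 452 and 304 CPM (2.44 ± 0.20, adjusted p = 0.000224). All 3 were lower in both SWNT/LP libraries than in either SWNT/CpG library by more than 4-fold. Ccl3 (1.13 ± 0.10) and Ccl4 (1.23 ± 0.10), which attract monocytes and T cells, rose less, Ccl3 from 1009 and 995 to 2339 and 2040 CPM, as did Ccl9 (0.56 ± 0.11). Ccl5 (1.28 ± 0.14) rose as well. Cxcl14 was the exception, falling from 13.9 and 12.2 to 4.8 and 5.35 CPM (-1.36 ± 0.14, adjusted p = 0.000345). Cxcl10, an interferon-induced attractant of T cells, did not pass (0.40 ± 0.19, adjusted p = 0.233), with 4.04 and 5.22 against 6.99 and 5.3 CPM. Ccl9 lost its call in every fit that left out 1 library (adjusted p = 0.0617 to 0.0869).

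**Figure D2:**
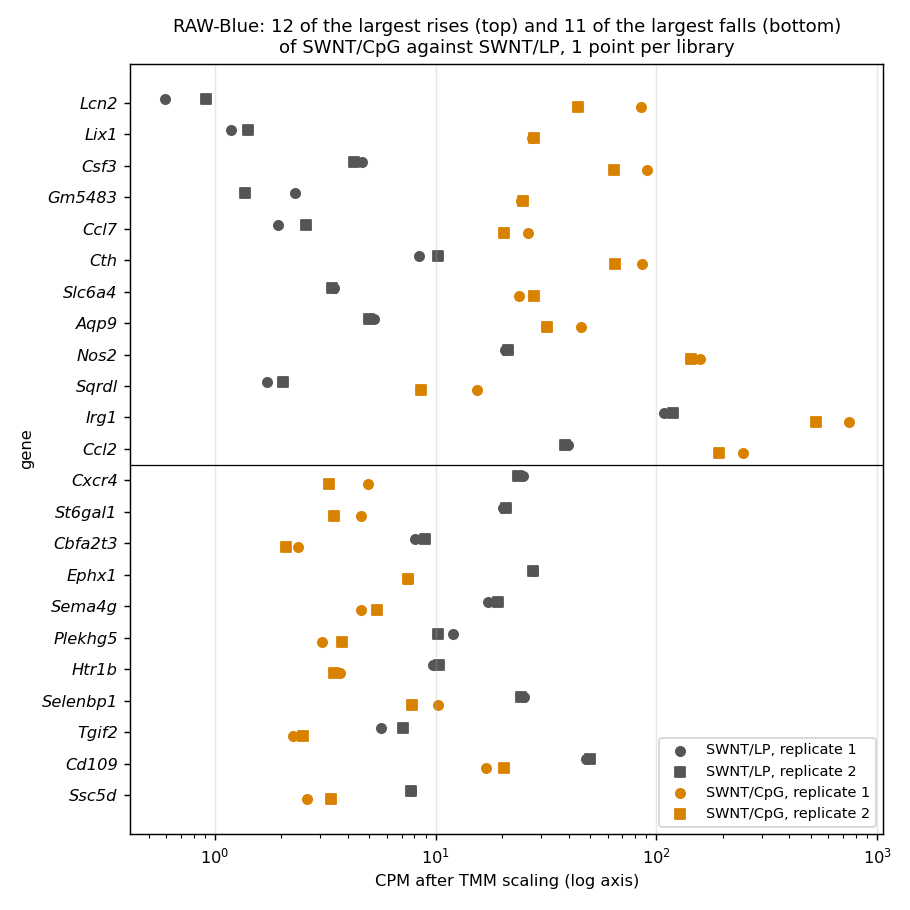
The 12 largest rises (top) and 11 of the 12 largest falls (bottom) among called genes of a mean log2 CPM of at least 2 are plotted as CPM after TMM scaling on a log axis, 1 point per library, gray for SWNT/LP and orange for SWNT/CpG. In every row the 2 gray and the 2 orange points lie apart, which the naming rule required. The rows run from Lcn2 at 0.591 and 0.912 against 84.9 and 44.2 CPM to Ssc5d at 7.73 and 7.75 against 2.6 and 3.35 CPM.

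Receptors for chemoattractants went both ways: of 12 tested, 4 rose and 3 fell (58.3% called, against 10.3% of all genes), with a median of 0.01. Cxcr4, the receptor of CXCL12, had 25 and 23.6 CPM in SWNT/LP and 4.91 and 3.3 CPM in SWNT/CpG, a 5.95-fold fall (-2.57 ± 0.18, adjusted p = 5.1e-05). The fractalkine receptor gene Cx3cr1 fell from 338 and 328 to 202 and 215 CPM (-0.67 ± 0.07, adjusted p = 0.000426), and the sphingosine-1-phosphate receptor gene S1pr1 fell too (-0.70 ± 0.13). Receptors for the complement fragments C5a and C3a rose: C5ar1 from 36.2 and 36.8 to 111 and 103 CPM (1.55 ± 0.15, adjusted p = 0.000345) and C3ar1 from 134 and 137 to 252 and 222 CPM (0.80 ± 0.09). Ccr1, a receptor of CCL3 and CCL5, rose as well (0.60 ± 0.12). The list had 5 higher and 4 lower without the untreated libraries, and 2 to 3 higher and 2 to 3 lower with 1 library left out. S1pr1 lost its call without SWNT/CpG replicate 2 or SWNT/LP replicate 1 (adjusted p up to 0.087), and Ccr1 in all 4 of these fits but that without SWNT/CpG replicate 2 (adjusted p up to 0.127).

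Of 32 tested genes of the TLR9 pathway itself, 4 rose and 2 fell (18.8% called, against 10.3% of all genes), and the median was -0.03. Irak3, whose product IRAK-M restrains signalling from Toll-like receptors, stood apart at 29.2 and 27.6 CPM in SWNT/LP and 114 and 102 CPM in SWNT/CpG (1.92 ± 0.12, adjusted p = 3.75e-05). The receptor gene Tlr9 had 12.9 and 13.3 against 18 and 20 CPM (0.54 ± 0.10, adjusted p = 0.00803). Of the endosomal proteases that can cut TLR9, cathepsin L rose (Ctsl, 616 and 609.6 against 886 and 914 CPM, 0.55 ± 0.07) and legumain fell (Lgmn, 611 and 634 against 416 and 434 CPM, -0.55 ± 0.08). The lipopeptide receptor gene Tlr2 was slightly lower (-0.37 ± 0.06, adjusted p = 0.00503). The chaperone gene Unc93b1 (0.13 ± 0.07) and the adaptor gene Myd88 (-0.10 ± 0.13) did not pass. Their 95% intervals ran from -0.02 to 0.29 and from -0.39 to 0.19. Tlr9 lost its call in all 4 of these fits but that without SWNT/CpG replicate 1 (adjusted p up to 0.0925), and Tlr2 in all 4 of these fits but that without SWNT/CpG replicate 2 (adjusted p up to 0.0754). The list had 6 higher and 10 lower without the untreated libraries, and 2 to 3 higher and 1 to 2 lower with 1 library left out.

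In the list of NF-kB subunits and feedback genes 10 of 21 rose and 1 fell (52.4% called, against 10.3% of all genes, median 0.355). Nfkbiz, an inducible nuclear cofactor of NF-kB, rose from 28.9 and 26.4 to 104 and 82.3 CPM (1.75 ± 0.15, adjusted p = 0.000176). Zc3h12a, an RNase that degrades cytokine mRNAs, rose from 25.8 and 29 to 71.4 and 65.9 CPM (1.33 ± 0.09, adjusted p = 4.91e-05). Socs3 (1.00 ± 0.12), which blocks cytokine receptor signalling, and Tnip1 (0.81 ± 0.10), a partner of the deubiquitinase A20, followed. The subunit gene Nfkb1 (0.70 ± 0.10) and the inhibitor gene Nfkbia (0.44 ± 0.09) rose by less than 2-fold. A further inhibitor gene of the same kind, Nfkbie, fell from 11.8 and 13.7 to 8.61 and 7.1 CPM (-0.70 ± 0.16, adjusted p = 0.019). Tnfaip3, the gene of A20, had 39.8 and 41.6 against 45.1 and 37.9 CPM (0.03 ± 0.10, adjusted p = 0.924), values that overlap. Both Nfkbia and Nfkbie lost their calls in every fit that left out 1 library (adjusted p = 0.062 to 0.155 and 0.054 to 0.168). The list had 13 higher and 1 lower without the untreated libraries, and 5 to 6 higher and 0 lower with 1 library left out.

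The 250 bases upstream of the start were searched in RefSeq promoters of build GRCm38.p6, which gave windows for 18 of these 21 genes. The kB motif, on either strand, was in 10 of the 18 (55.6%), against 470 of 8861 tested genes with a window (5.3%). It was in 8.09% of the genes called higher and 6.34% of those called lower. Of the genes higher by over 2-fold, 5 of 140 with a window held it (3.57%). By call, the motif was in 3 of 8 members that rose, in the 1 that fell, and in 6 of 9 that were not called. The windows of 1 chemokine gene and 3 feedback genes are printed, each 5′ to 3′ on the gene's strand with the kB matches in capitals, since Cxcl2, Tnip1 and Nfkbia rose and Nfkbie fell although all 4 hold the motif.
Cxcl2: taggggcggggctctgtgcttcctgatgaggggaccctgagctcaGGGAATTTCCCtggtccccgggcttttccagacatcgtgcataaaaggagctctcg
Tnip1: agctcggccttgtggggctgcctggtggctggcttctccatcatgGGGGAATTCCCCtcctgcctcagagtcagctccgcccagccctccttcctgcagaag
Nfkbia: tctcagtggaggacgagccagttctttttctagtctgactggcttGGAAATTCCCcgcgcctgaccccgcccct
Nfkbie: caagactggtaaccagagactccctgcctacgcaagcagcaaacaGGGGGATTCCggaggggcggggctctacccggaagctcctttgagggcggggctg
The windows lie at chr5:90903757-90903857 (plus strand), at chr11:54962942-54963043 (minus strand), at chr12:55492648-55492721 (minus strand) and at chr17:45555549-45555648 (plus strand), in that order. A match is a description of the letters and does not show that a factor binds there.

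Many genes induced by interferon rose. Of 37 tested, 15 rose and none fell (40.5% called, against 10.3% of all genes), and the median was 0.71. Irf1 alone had a negative log2 fold change, and it was not called. The members with the smallest adjusted p included Cmpk2 (3.69 and 4.2 against 11.3 and 8.35 CPM, 1.31 ± 0.18, adjusted p = 0.0017), a mitochondrial nucleotide kinase, and Oasl1 (30.8 and 38.1 against 70.7 and 61.8 CPM, 0.94 ± 0.14, adjusted p = 0.00219), which limits translation of Irf7. Trim30a had 19.4 and 21.9 against 40.2 and 37.9 CPM (0.92 ± 0.13) and the RNA sensor gene Ifih1 had 17.6 and 22 against 46.5 and 39.6 CPM (1.12 ± 0.18). None of these 4 overlapped between the groups, as held for every called gene. The ubiquitin-like Isg15 (0.93 ± 0.15), the RNA-binding Ifit1 (0.95 ± 0.20) and the antiviral enzyme gene Rsad2 (1.00 ± 0.22) rose by about as much. The guanylate-binding protein gene Gbp2 had the largest fold change of the list (2.23 ± 0.49) but few reads, at 0.148 and 0.152 against 0.867 and 0.6 CPM. The master regulator gene Irf7 did not pass (0.97 ± 0.33, adjusted p = 0.108), with 17.6 and 24.8 CPM in SWNT/LP and 38.4 and 44.7 CPM in SWNT/CpG. The list had 19 higher and 0 lower without the untreated libraries, and 4 to 11 higher and 0 lower with 1 library left out. Isg15 lost its call without SWNT/LP replicate 1 (adjusted p = 0.0522), Ifit1 without SWNT/CpG replicate 1 or SWNT/LP replicate 1 (adjusted p up to 0.125), Rsad2 in all 4 of these fits but that without SWNT/CpG replicate 2 (adjusted p up to 0.182), and Gbp2 in all 4 of these fits but that without SWNT/CpG replicate 2 (adjusted p up to 0.147). Among 14 sensors of nucleic acids in the cytosol, Ifih1 and Zbp1 (1.74 ± 0.30) rose and Dnase2a, a lysosomal DNase, fell slightly (-0.35 ± 0.07). The share of sensors called was 21.4%. The sensors had 6 higher and 1 lower without the untreated libraries, and 1 to 2 higher and 0 lower with 1 library left out. Zbp1 lost its call without SWNT/LP replicate 1 (adjusted p = 0.0686), and Dnase2a in every fit that left out 1 library (adjusted p = 0.0882 to 0.117).

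The core of the interferon-stimulated response element, GAAA repeated after 2 bases of any kind and searched on either strand, was in 15 of 31 promoter windows of this list (48.4%) and in 3.18% of the windows of all tested genes. Of the members that rose, 8 of 14 with a window held it, and of those not called 6 of 16. Windows of Isg15, Ifit1 and Gbp2 are printed with the matches in capitals, as genes of the list with 3, 2 and 1 matches and, in that order, 0.93, 0.95 and 2.23 on the log2 scale.
Isg15: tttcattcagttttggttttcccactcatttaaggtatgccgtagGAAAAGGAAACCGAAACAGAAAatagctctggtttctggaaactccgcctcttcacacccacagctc
Ifit1: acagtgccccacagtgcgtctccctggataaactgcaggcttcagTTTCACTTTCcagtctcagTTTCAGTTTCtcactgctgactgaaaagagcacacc
Gbp2: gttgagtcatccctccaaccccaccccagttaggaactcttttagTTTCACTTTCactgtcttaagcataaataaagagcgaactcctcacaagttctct
They lie at chr4:156200830-156200941 (minus strand), at chr19:34640740-34640839 (plus strand) and at chr3:142620559-142620658 (plus strand). Overlapping matches in Isg15 form 1 run of capitals. The matches of Ifit1 and Gbp2 are on the opposite strand, so each repeat reads TTTC on the strand printed.

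**Figure D3:**
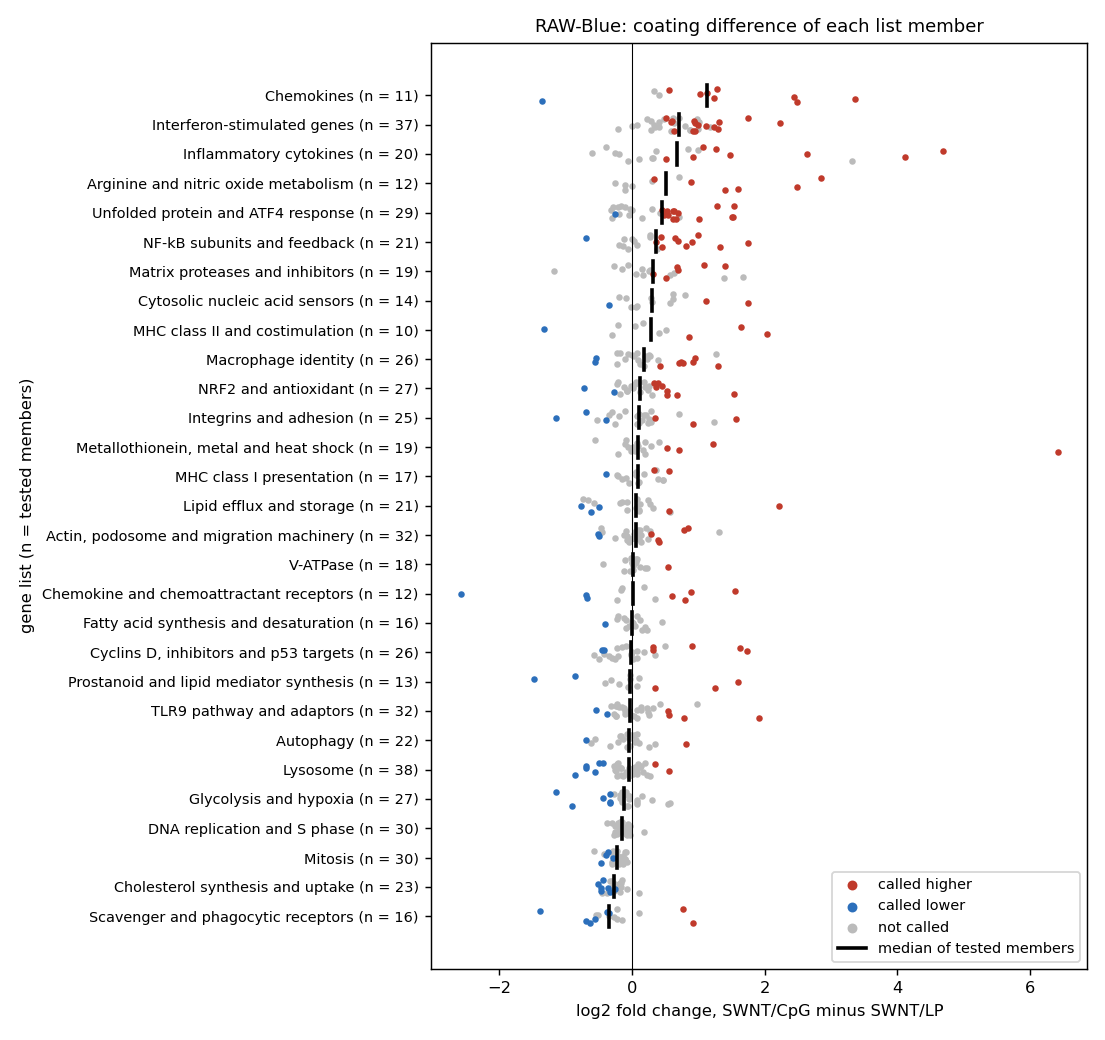
Each row is 1 gene list with over 5 tested members and each point 1 member at its log2 fold change, SWNT/CpG minus SWNT/LP; red points are called higher, blue lower, gray not called, and black ticks are medians. Chemokines, interferon-stimulated genes and inflammatory cytokines have the highest medians (1.13, 0.71 and 0.68), and scavenger receptors and cholesterol synthesis the lowest (-0.35 and -0.27).

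Effector enzymes of activated macrophages rose. Nos2, the inducible nitric oxide synthase, had 20.6 and 21.2 CPM in SWNT/LP and 157 and 144 CPM in SWNT/CpG (2.85 ± 0.16, adjusted p = 2.28e-05). Irg1, the enzyme that makes itaconate, had 108 and 118 against 743 and 528 CPM (2.49 ± 0.21, adjusted p = 0.000245). Ornithine decarboxylase Odc1, which starts polyamine synthesis, had 186 and 179 against 539 and 571 CPM (1.60 ± 0.14, adjusted p = 0.000214). In the list of arginine and nitric oxide metabolism 6 of 12 genes rose and none fell (median 0.52), with 7 higher and 1 lower without the untreated libraries, and 3 to 5 higher and 0 lower with 1 library left out. Prostaglandin E2 synthesis showed the same direction in its inducible steps: Ptgs2 rose from 206 and 190.2 to 527 and 416 CPM (1.25 ± 0.14) and Ptges from 7.38 and 8.81 to 24.8 and 24 CPM (1.59 ± 0.13), whereas the prostaglandin E2 receptor gene Ptger4 fell (-0.85 ± 0.13, adjusted p = 0.00291). The whole prostanoid list had 3 higher and 2 lower of 13, with 3 higher and 2 lower without the untreated libraries, and 2 higher and 1 to 2 lower with 1 library left out. Of genes for matrix proteases and their partners 6 of 19 rose and none fell, with 9 higher and 1 lower without the untreated libraries, and 3 to 4 higher and 0 lower with 1 library left out. Among them Spp1, the gene of osteopontin, went from 4358 and 4178 to 11410 and 11190 CPM (1.41 ± 0.12, adjusted p = 0.000134). The urokinase receptor gene Plaur (1.08 ± 0.14) and the membrane protease gene Adam8 (0.69 ± 0.08) rose as well. The shares called were 50% for the arginine list, 38.5% for the prostanoid list and 31.6% for the matrix list, against 10.3% of all genes.

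Of 17 tested genes of MHC class I presentation 2 rose and 1 fell (17.6% called, median 0.085), and of 10 genes of MHC class II and costimulation 3 rose and 1 fell (40% called, median 0.28), against 10.3% of all genes called. The class I list had 6 higher and 3 lower without the untreated libraries, and 0 to 1 higher and 0 lower with 1 library left out, and the class II and costimulation list had 3 higher and 2 lower without the untreated libraries, and 1 to 3 higher and 1 lower with 1 library left out. Nlrc5, the class I transactivator, had 43.4 and 50.4 against 68.5 and 69.9 CPM (0.56 ± 0.10, adjusted p = 0.00503). The costimulatory receptor gene Cd40 rose from 1.38 and 1.22 to 4.91 and 3.3 CPM (1.65 ± 0.27, adjusted p = 0.00359) and the costimulatory ligand gene Cd86 from 0.197 and 0.253 to 1.21 and 0.7 CPM (2.04 ± 0.52). Cd80 (0.17 ± 0.12, adjusted p = 0.469) and Icosl (0.05 ± 0.15, adjusted p = 0.896) did not pass. Cd83, also a marker of activated antigen-presenting cells, fell instead, from 13.1 and 14.4 to 5.09 and 5.8 CPM (-1.33 ± 0.17, adjusted p = 0.00108). The checkpoint ligand gene Cd274 (PD-L1) had 9.85 and 11 against 22.4 and 15.7 CPM (0.86 ± 0.21). Cd86 and Cd274 lost their calls in all 4 of these fits but that without SWNT/CpG replicate 2 (adjusted p up to 0.24 and 0.254), and Nlrc5 lost its call without SWNT/LP replicate 1 (adjusted p = 0.0789).

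Surface genes of macrophages went both ways. Of 26 macrophage identity genes 7 rose and 2 fell, and of 16 receptors for scavenging and phagocytosis 2 rose and 6 fell (medians 0.19 and -0.35). The shares called were 34.6% and 50%, against 10.3% of all genes. Fcgr2b, the inhibitory receptor for IgG, rose from 61.6 and 65.5 to 159 and 152 CPM (1.29 ± 0.16, adjusted p = 0.00109), and Itgam, the CD11b integrin chain, from 534 and 556 to 1059 and 1011 CPM (0.93 ± 0.12). The scavenger receptor gene Msr1 rose (0.92 ± 0.14, adjusted p = 0.00221), as did the C-type lectin gene Clec4d (0.95 ± 0.10). Receptors and ligands for the uptake of dead cells went both ways. Stab1, which encodes stabilin-1, rose (0.76 ± 0.12, adjusted p = 0.00293). Gas6, a ligand that bridges dead cells to TAM receptors, fell, with 5.17 and 6.08 against 2.14 and 2.15 CPM (-1.39 ± 0.25, adjusted p = 0.00637), and its receptor gene Axl fell from 21 and 18.6 to 12.9 and 12.6 CPM (-0.64 ± 0.14). Tyro3 (-0.52 ± 0.37, adjusted p = 0.48), another receptor of GAS6, and Mfge8 (-0.27 ± 0.10, adjusted p = 0.137), a further bridging ligand, did not pass. Itgb5 (-0.69 ± 0.11) and the large endocytic receptor gene Lrp1 (-0.38 ± 0.07) fell too. The microglial and macrophage lipid receptor gene Trem2 also fell (-0.56 ± 0.10). Axl lost its call in every fit that left out 1 library (adjusted p = 0.0615 to 0.165), Gas6 in all 4 of these fits but that without SWNT/LP replicate 1 (adjusted p up to 0.0632), Lrp1 in all 4 of these fits but that without SWNT/CpG replicate 1 (adjusted p up to 0.0744), Trem2 without SWNT/CpG replicate 2 or SWNT/LP replicate 1 (adjusted p up to 0.0728), and Stab1 without SWNT/LP replicate 1 (adjusted p = 0.0522). The scavenger list had 2 higher and 10 lower without the untreated libraries, and 1 to 2 higher and 1 to 3 lower with 1 library left out, and the identity list had 13 higher and 4 lower without the untreated libraries, and 5 to 7 higher and 1 to 2 lower with 1 library left out.

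Lysosomal hydrolases fell more often than they rose, by less than 2-fold. The share of lysosomal genes called was 21.1%, against 10.3% of all genes. Of 38 lysosomal genes 2 rose and 6 fell, with a median of -0.05 and with 6 higher and 16 lower without the untreated libraries, and 1 higher and 4 lower with 1 library left out. The mannosidase gene Man2b1 fell from 155 and 156 to 95.8 and 96.6 CPM (-0.69 ± 0.07, adjusted p = 0.000345). The acid lipase gene Lipa fell from 489 and 496 to 342 and 355 CPM (-0.50 ± 0.07). In the same samples Tfeb, a transcription factor of lysosomal genes, fell from 26.8 and 27.6 to 17.1 and 16.6 CPM (-0.69 ± 0.11, adjusted p = 0.00275). In this fit it was the only autophagy gene of 22 called lower, and the cargo receptor gene Sqstm1 the only one called higher (575 and 579.8 against 1165 and 874 CPM, 0.82 ± 0.13), with 2 higher and 4 lower without the untreated libraries, and 1 higher and 1 lower with 1 library left out. Of 18 subunits of the V-ATPase, the proton pump of lysosomes, 1 passed: Atp6v0a1 (0.55 ± 0.10), whose call was lost in all 4 of these fits but that without SWNT/CpG replicate 2 (adjusted p up to 0.0924). Without the untreated libraries 2 subunits were higher and 0 lower. The shares called in the main fit, 9.09% for autophagy and 5.56% for the V-ATPase, were no higher than the 10.3% of all genes.

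Genes of cholesterol synthesis and uptake had small negative fold changes. Of 23 tested 7 fell and none rose (30.4% called, against 10.3% of all genes), 22 had a negative log2 fold change, and the median was -0.27. Cyp51, a lanosterol demethylase, fell from 263 and 269 to 175 and 197 CPM (-0.52 ± 0.08, adjusted p = 0.00291). Insig1, which holds the SREBP activation machinery in the endoplasmic reticulum, fell from 133 and 126 to 94.5 and 91.5 CPM (-0.47 ± 0.07, adjusted p = 0.00224). The list had 0 higher and 19 lower without the untreated libraries, and 0 higher and 1 to 3 lower with 1 library left out, and Cyp51 lost its call without SWNT/CpG replicate 1 (adjusted p = 0.0504). Fatty acid synthesis and desaturation had 1 of 16 called, Fads2 (-0.41 ± 0.09), lost in every fit that left out 1 library (adjusted p = 0.0922 to 0.144). The share called was 6.25%, against 10.3% of all genes. Without the untreated libraries 2 members of this list were higher and 3 lower. Of 21 genes of lipid efflux and storage 2 rose and 3 fell, with 3 higher and 4 lower without the untreated libraries, and 1 higher and 2 lower with 1 library left out. The fatty acid carrier gene Fabp4 rose from 7.19 and 9.88 to 41.6 and 37.3 CPM (2.21 ± 0.14, adjusted p = 3.75e-05). Pltp, which transfers phospholipids between lipoproteins, fell from 116 and 115 to 67.7 and 68.4 CPM (-0.76 ± 0.08, adjusted p = 0.000393). The share called in the efflux and storage list was 23.8%.

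The largest rise of a gene of moderate level was in iron handling. Lcn2, the siderophore-binding lipocalin 2, had 0.591 and 0.912 CPM in SWNT/LP and 84.9 and 44.2 CPM in SWNT/CpG, 85.2-fold higher (6.41 ± 0.52, adjusted p = 0.000199). Its SWNT/CpG libraries differed from each other by nearly 2-fold, and both were far above either SWNT/LP library. The metal transporter gene Slc11a1 (NRAMP1), which moves iron and manganese out of phagosomes, rose from 72.2 and 74.8 to 178 and 165 CPM (1.22 ± 0.08, adjusted p = 5.1e-05), and Slc11a2 rose less (0.71 ± 0.11). Of 19 genes of metal handling and heat shock 4 rose, the metallothionein Mt2 (0.53 ± 0.09) being the fourth, and none fell, with 7 higher and 1 lower without the untreated libraries, and 3 to 5 higher and 0 lower with 1 library left out. Antioxidant genes of the NRF2 list had 8 higher and 2 lower of 27 (median 0.115). The shares called were 21.1% for metal handling and heat shock and 37% for the NRF2 list, against 10.3% of all genes. The cystine transporter gene Slc7a11 rose from 63.6 and 67.2 to 216 and 163 CPM (1.53 ± 0.19, adjusted p = 0.00127), and glutathione peroxidase Gpx1 fell from 517 and 506 to 311 and 305 CPM (-0.73 ± 0.10, adjusted p = 0.00156). Heme oxygenase Hmox1 did not pass (0.25 ± 0.09, adjusted p = 0.114). The NRF2 list had 11 higher and 4 lower without the untreated libraries, and 1 to 6 higher and 1 lower with 1 library left out. Mt2 lost its call in all 4 of these fits but that without SWNT/CpG replicate 2 (adjusted p up to 0.0767).

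Of 29 genes of the unfolded protein and ATF4 response 14 rose and 1 fell (51.7% called, against 10.3% of all genes), with a median of 0.45. Trib3, a pseudokinase induced by ATF4, rose from 21.5 and 24.1 to 75.8 and 55.2 CPM (1.52 ± 0.18, adjusted p = 0.000865). The transcription factor gene Atf5 rose from 34.3 and 35.9 to 92.4 and 78 CPM (1.28 ± 0.13, adjusted p = 0.000345) and asparagine synthetase Asns from 170.4 and 174 to 371 and 319 CPM (1.00 ± 0.12). The glutathione-degrading enzyme gene Chac1 (1.51 ± 0.25), Atf4 itself (0.54 ± 0.10) and Ddit3 (0.70 ± 0.14), the gene of CHOP, rose too. Not all ATF4 targets of the list passed, with Nupr1 at 0.71 ± 0.20 (adjusted p = 0.0522) and Ddit4 at -0.31 ± 0.11 (adjusted p = 0.113). The chaperone gene Hspa5 had 2258 and 2208 against 2081 and 2237 CPM (-0.05 ± 0.07, adjusted p = 0.753), values that overlap. Chac1 lost its call without SWNT/LP replicate 1 (adjusted p = 0.0731), Atf4 without SWNT/CpG replicate 1 or SWNT/LP replicate 1 (adjusted p up to 0.0828), and Ddit3 in all 4 of these fits but that without SWNT/CpG replicate 2 (adjusted p up to 0.102). The list had 16 higher and 7 lower without the untreated libraries, and 6 to 13 higher and 0 to 1 lower with 1 library left out.

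Cell cycle genes had small negative fold changes. All 30 mitosis genes had a negative log2 fold change with a median of -0.22. Of them 4 were called lower (13.3%), against 4% of all genes called lower. Among the 4 were Ccnb2 (126 and 128 against 88.7 and 95.9 CPM, -0.46 ± 0.08, adjusted p = 0.00408), which encodes cyclin B2, and the centromere histone gene Cenpa (-0.40 ± 0.08). None of 30 genes of DNA replication was called (median -0.15), against 10.3% of all genes. The mitosis list had 0 higher and 20 lower without the untreated libraries, and 0 higher and 0 to 2 lower with 1 library left out, and the replication list had 0 higher and 12 lower without the untreated libraries, and 0 higher and 0 lower with 1 library left out. Ccnb2 lost its call without SWNT/CpG replicate 1 or SWNT/LP replicate 2 (adjusted p up to 0.0693), and Cenpa in every fit that left out 1 library (adjusted p = 0.0641 to 0.127). The growth-related transcription factor gene Myc rose from 4.28 and 4.3 to 14.3 and 12.3 CPM (1.63 ± 0.13, adjusted p = 0.000129), the survival gene Bcl2l1 from 218 and 218 to 416 and 400.2 CPM (0.90 ± 0.08) and the stress gene Gadd45a from 1.53 and 1.67 to 5.72 and 4.9 CPM (1.73 ± 0.19). They belong to a mixed list of D cyclins, cell cycle inhibitors and p53 targets. Of its 26 tested genes 5 rose and 2 fell (26.9% called, median -0.0157), and 6 were higher and 8 lower without the untreated libraries. The falls were Cdkn2c (-0.45 ± 0.09) and Sesn1 (-0.42 ± 0.11). In the next list, glycolysis and the hypoxia response, 22.2% were called, against 10.3% of all genes. Of 27 genes of glycolysis and the hypoxia response 6 fell and none rose, led by Ankrd37 (22.8 and 23 against 10.5 and 10.2 CPM, -1.15 ± 0.12, adjusted p = 0.000432) and adrenomedullin Adm (-0.90 ± 0.09), and the median was -0.115, with 2 higher and 11 lower without the untreated libraries, and 0 higher and 2 lower with 1 library left out.

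Adhesion and actin genes, which bear on the migration assay the cells came from, had both rises and falls. Of 25 integrin and adhesion genes 3 rose and 3 fell, and of 32 genes of actin, podosomes and migration 5 rose and 2 fell (medians 0.101 and 0.0645). The shares called were 24% and 21.9%, against 10.3% of all genes. The adhesion list had 9 higher and 7 lower without the untreated libraries, and 2 to 3 higher and 1 to 2 lower with 1 library left out, and the actin list had 9 higher and 3 lower without the untreated libraries, and 2 to 3 higher and 0 to 1 lower with 1 library left out. Itgal, the LFA-1 chain that binds ICAM-1, rose from 15.7 and 16.3 to 51 and 44.1 CPM (1.57 ± 0.18, adjusted p = 0.000865). Itga4, a chain of the fibronectin and VCAM-1 receptor VLA-4, fell from 1245 and 1223 to 521 and 595 CPM (-1.15 ± 0.23, adjusted p = 0.0161), and its call was lost in every fit that left out 1 library (adjusted p = 0.0675 to 0.133). The small GTPase gene Rhoc rose from 125 and 122 to 225 and 216 CPM (0.84 ± 0.09, adjusted p = 0.00046). The actin-severing gelsolin fell (Gsn, -0.52 ± 0.09), its call lost without SWNT/CpG replicate 2 or SWNT/LP replicate 1 (adjusted p up to 0.0615), and beta-actin had no detectable difference (Actb, 6159 and 5982 against 5942 and 5836 CPM, -0.04 ± 0.11, 95% interval from -0.30 to 0.21).

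Several of the largest changes belong to no list. Cth, an enzyme that makes cysteine and hydrogen sulfide, rose from 8.37 and 10.3 to 86.2 and 64.9 CPM (3.02 ± 0.25, adjusted p = 0.000225). Sqrdl, which oxidises sulfide in mitochondria, rose from 1.72 and 2.03 to 15.4 and 8.55 CPM (2.66 ± 0.30, adjusted p = 0.000532). Both were named for the size of their rise, and no list of sulfide turnover genes was drawn up. Lix1 rose from 1.18 and 1.42 to 27.2 and 27.8 CPM (4.40 ± 0.43, adjusted p = 0.000439). The serotonin transporter gene Slc6a4 rose from 3.45 and 3.39 to 23.9 and 28 CPM (2.92 ± 0.14, adjusted p = 1.26e-05), and the serotonin receptor gene Htr1b fell from 9.7 and 10.3 to 3.7 and 3.45 CPM (-1.49 ± 0.19, adjusted p = 0.00095). Aqp9, a channel for water and glycerol, rose (2.91 ± 0.33), and so did Gm5483 (3.73 ± 0.46), a stefin A family gene whose counts are uncertain, as near-identical copies can share its reads. Among the falls were St6gal1, which adds sialic acid to glycoproteins (20.1 and 20.8 against 4.57 and 3.45 CPM, -2.36 ± 0.13, adjusted p = 2.17e-05), and the microsomal epoxide hydrolase Ephx1 (27.7 and 27.5 against 7.51 and 7.5 CPM, -1.88 ± 0.10, adjusted p = 1.26e-05). The transcriptional corepressor gene Cbfa2t3 (-1.93 ± 0.17), the guanine nucleotide exchange factor gene Plekhg5 (-1.70 ± 0.18), the TGF-beta co-receptor gene Cd109 (-1.39 ± 0.13) and the corepressor gene Tgif2 (-1.42 ± 0.20) fell too. Selenbp1 fell (-1.47 ± 0.31, adjusted p = 0.0173), but its call was lost in every fit that left out 1 library (adjusted p = 0.0767 to 0.138). Sema4g (-1.86 ± 0.31) lost its call without SWNT/CpG replicate 1 (adjusted p = 0.0623), and Ssc5d (-1.37 ± 0.17) kept it in all 4 fits.

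The other RAW-Blue groups place these 2 coatings. They share libraries with the coating comparison, so their values are set side by side and not counted against it. Nanotubes in lipid-PEG were not silent against water: 55 genes were called (0.478%), 50 higher (0.434%) and 5 lower (0.0434%), the former including Csf3 (log2 fold change 3.41 ± 0.46, adjusted p = 0.0204), Nos2 (2.45 ± 0.20, adjusted p = 0.00156), Ccl2 (1.40 ± 0.14, adjusted p = 0.00445) and Tnf (0.95 ± 0.08, adjusted p = 0.00156). The counts use the untreated pair directly, the pair with the largest spread, and were not repeated with other sets of libraries. For Nos2 the untreated libraries had 3.71 and 3.95 CPM, CpG alone gave 109.8 and 131 CPM and CpG+SWNT/LP gave 117 and 162 CPM, next to 157 and 144 CPM with SWNT/CpG. For Csf3 the same 4 groups had 0.456 and 0.368, 22.4 and 27.8, 64.9 and 87.1 and 90.6 and 64.1 CPM. Nos2 was thus near its SWNT/CpG level in every group with CpG-28, whereas Csf3 was near it only in the group that had CpG-28 with nanotubes unjoined.

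Between joined and unjoined CpG-28, SWNT/CpG minus CpG+SWNT/LP, 95 genes were called (0.825%), 54 higher (0.469%) and 41 lower (0.356%). These calls rest on the fit of all RAW-Blue libraries, the untreated pair included, and were not repeated with other sets of libraries. In this comparison both groups have nanotubes and CpG-28, and lipid-PEG is in the unjoined group only. Lcn2 had 8.35 and 11.9 CPM unjoined and 84.9 and 44.2 CPM joined (log2 fold change 2.66 ± 0.37, adjusted p = 0.026). Cth had 26.5 and 34.2 CPM unjoined against 86.2 and 64.9 CPM joined (1.31 ± 0.23, adjusted p = 0.0445), and Lix1 had 3.61 and 8.3 against 27.2 and 27.8 CPM (2.19 ± 0.35, adjusted p = 0.0417). These 3 genes were higher in both joined libraries than in either unjoined one. Cxcr4 was lower joined, at 4.91 and 3.3 CPM against 14.1 and 12.5 CPM (-1.70 ± 0.18, adjusted p = 0.00917), and so was Cd83 (-1.31 ± 0.17, adjusted p = 0.0233). C5ar1 (1.09 ± 0.15), Itgal (1.06 ± 0.18), Sqrdl (1.64 ± 0.27), Irak3 (0.82 ± 0.12) and Trim30a (1.01 ± 0.13) were called higher joined. Slc6a4 and Acp5, which rose with the coating, were lower joined than unjoined, Slc6a4 at 23.9 and 28 against 43.4 and 49.5 CPM (-0.84 ± 0.11, adjusted p = 0.0237) and the phosphatase gene Acp5 at 23.1 and 26.9 against 52.8 and 50.8 CPM (-1.05 ± 0.11, adjusted p = 0.00917). The rise of Acp5 with the coating (0.52 ± 0.12) lost its call in all 4 of these fits but that without SWNT/CpG replicate 1 (adjusted p up to 0.224). For Csf3 (0.02 ± 0.18), Nos2 (0.11 ± 0.14), Tnf (0.01 ± 0.08) and Ccl2 (0.33 ± 0.12) joined and unjoined CpG-28 did not differ past the threshold.

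**Figure D4:**
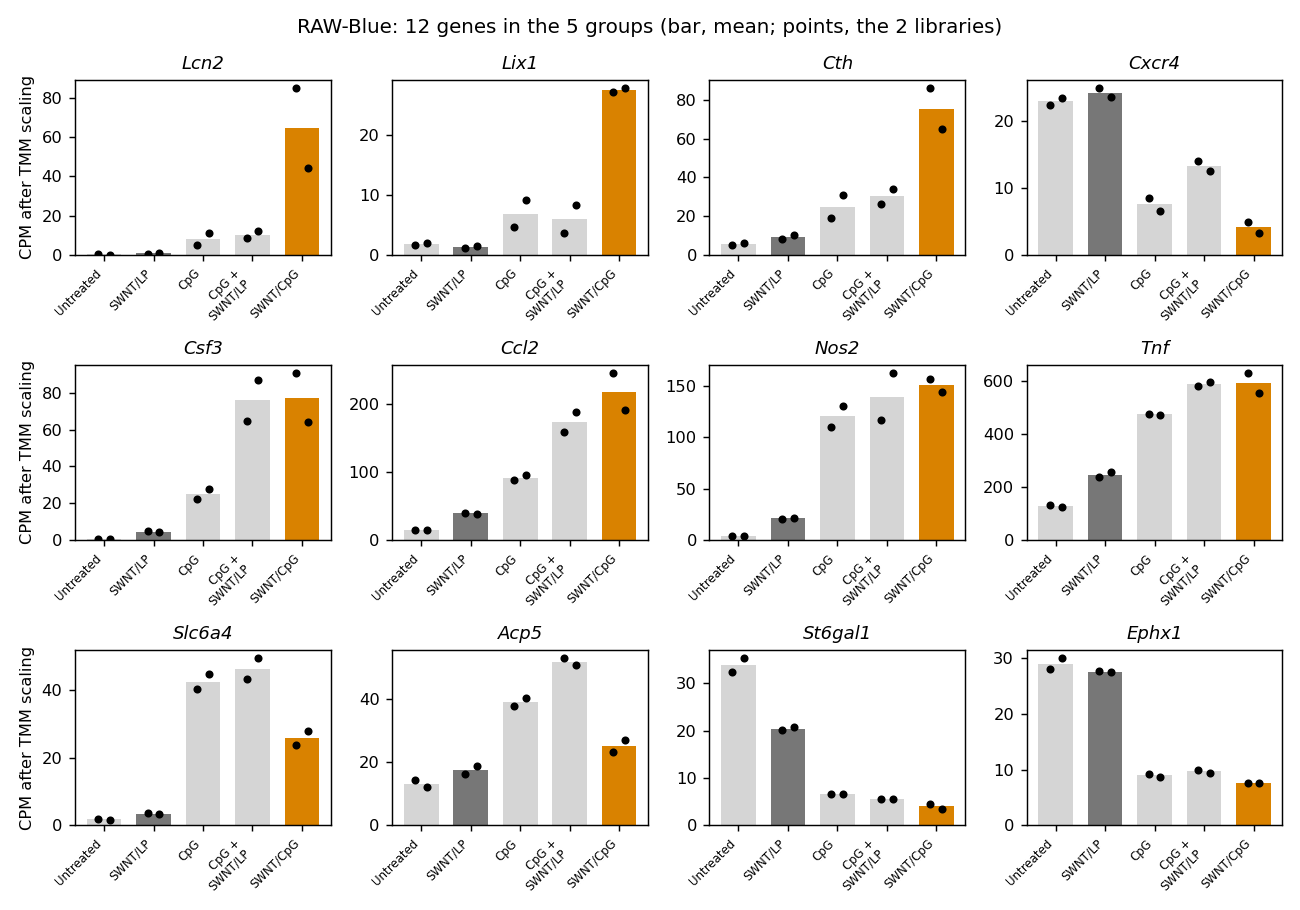
These 12 genes are shown across the 5 RAW-Blue groups as CPM after TMM scaling, with bars for the mean of 2 libraries and points for the libraries; dark gray is SWNT/LP and orange is SWNT/CpG. Lcn2, Lix1 and Cth are highest in the orange bars alone, Csf3, Nos2 and Tnf are about level between the orange bar and CpG+SWNT/LP, and Slc6a4 and Acp5 are lower in the orange bar than in both other groups with CpG-28.

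Whether the exchange of the coating differs from the addition of free CpG-28 to water-treated cells was tested as the difference of the 2 responses, (SWNT/CpG minus SWNT/LP) minus (CpG minus untreated), over 4 groups that share no library. No gene passed (0% of 11514), with 964 genes at an unadjusted p under 0.05 and a smallest adjusted p of 0.057 by edgeR, while DESeq2 called 30 and edgeR without a low-count filter 21. The genes at that smallest p included Nos2, for which the coating response was 2.85 ± 0.16 and the free CpG response 4.97 ± 0.19 (difference -2.12 ± 0.25, 95% interval -2.68 to -1.57). Slc6a4 had 2.92 ± 0.14 and 4.67 ± 0.16 (difference -1.74 ± 0.24, 95% interval -2.27 to -1.22), and Myc had 1.63 ± 0.13 and 3.31 ± 0.16 (difference -1.69 ± 0.22, 95% interval -2.17 to -1.20). All 3 are named after their values were seen, and in each the free CpG response was the larger. For Ccl2 the 2 responses were 2.48 ± 0.13 and 2.62 ± 0.14, with a difference of -0.14 ± 0.18 and a 95% interval of -0.55 to 0.27. For Lcn2 the interval of the difference, -2.73 to 4.87, spans both signs widely. The untreated pair decides this count: 113 genes were called without untreated replicate 1 and 2806 without untreated replicate 2, against 0 when any other library of the 4 groups was left out.

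The same exchange of coating was made in K-Luc glioma cells (n = 3 for each coating, 17 to 19 h of treatment), which asks whether the macrophage response is shared by a tumour line. The difference between the lines was called for 2367 of 13350 genes (17.7%), 1326 with a higher log2 fold change in RAW-Blue (9.93%) and 1041 with a lower one (7.8%), in a fit of all 24 libraries with terms for group and run. Line, treatment time and plating differ together and cannot be told apart. The share with the higher change in RAW-Blue was 56% here, 46% with DESeq2 and 45.2% with a stricter low-count filter. Without the run term 2250 genes were called, 1261 higher and 989 lower. Cth rose in RAW-Blue (3.02 ± 0.19 in this fit) and did not pass in K-Luc (-0.37 ± 0.18, adjusted p = 0.131), a difference of 3.39 ± 0.26 (adjusted p = 3.2e-08). Ccl7 had 3.37 ± 0.19 and 0.33 ± 0.16, a difference of 3.04 ± 0.25 (adjusted p = 2.18e-08). St6gal1 fell in RAW-Blue (-2.36 ± 0.16) and did not pass in K-Luc (0.09 ± 0.09), with an adjusted p of the difference of 5.14e-09. Itga3, an integrin chain for laminins, was scarce in RAW-Blue, at a mean of 0.277 ± 0.041 CPM in SWNT/LP and 3.49 ± 0.83 CPM in SWNT/CpG (SD, n = 2), and abundant in K-Luc, at 392 ± 20.7 and 388 ± 41.6 CPM (SD, n = 3). Its log2 fold changes were 3.64 ± 0.34 and 0.05 ± 0.08 (adjusted p of the difference 2.05e-07). Of the 10 genes named, 5 had opposite signs in the lines and passed the test in K-Luc. Id1, an inhibitor of helix-loop-helix factors, went from 4.88 ± 0.31 to 13.4 ± 0.256 CPM in RAW-Blue and from 66.2 ± 9.98 to 24.1 ± 1.1 CPM in K-Luc, a difference of 2.82 ± 0.22 on the log2 scale (adjusted p = 1.21e-08). Pmepa1, which is induced by TGF-beta and restrains its signalling, went from 5.35 ± 0.213 to 0.656 ± 0.353 CPM in RAW-Blue and from 174 ± 13.8 to 431 ± 27.8 CPM in K-Luc, a difference of -4.21 ± 0.27 (adjusted p = 6.48e-10). Hspb7, a small heat shock protein gene, differed by -2.64 ± 0.23, Copz2 by -2.75 ± 0.42 and Ldlrad4 by -2.79 ± 0.59, each lower in RAW-Blue and higher in K-Luc with SWNT/CpG. The levels of Copz2 and Ldlrad4 in RAW-Blue were near 1 CPM or below.

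**Figure D5:**
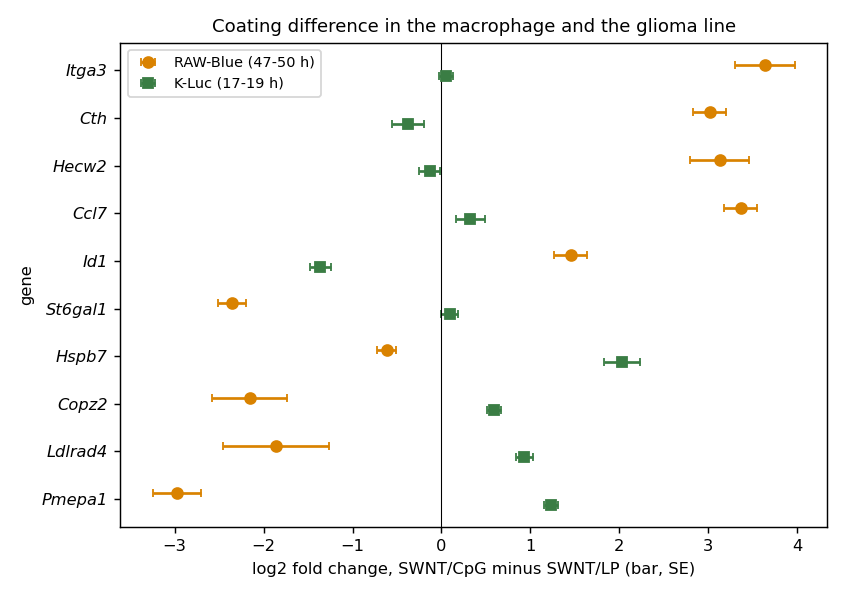
For the 10 genes with the largest differences between the lines under the naming rule, points give the log2 fold change, SWNT/CpG minus SWNT/LP, in RAW-Blue (orange circles) and K-Luc (green squares), with bars of 1 standard error. Id1, Hspb7, Copz2, Ldlrad4 and Pmepa1 lie on opposite sides of 0 in the 2 lines, and Itga3, Hecw2 and St6gal1 lie near 0 in K-Luc.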

How the data were processed

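Poly(A) RNA of 10 RAW-Blue and 14 K-Luc samples went into stranded mRNA libraries, after an extra spin to pellet nanotubes, per the labels' protocols. Reads were aligned with TopHat2 2.0.14 to mm9 and counted with HTSeq 0.6.0, per the submitters' processing notes; which annotation, strand option and filters went with them is not given in the sources used here. Whole-number counts for 21669 genes, the unit tested, were deposited by the authors with RPKM values, used only as a check: over 1943 genes above 20 RPKM in every RAW-Blue library, the median count per deposited RPKM unit, relative to the library's total count, lay between 0.954 and 1.02 across libraries.

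Counts were tested with edgeR 4.0.16 (R 4.3.3, limma 3.58.1; filterByExpr with a minimum count of 10 and a minimum total of 15, TMM factors, robust quasi-likelihood F test). The fit of 10 RAW-Blue libraries in 5 groups had 11514 genes, 5 residual degrees of freedom and a biological coefficient of variation of 0.086. The fit for the cell line difference had all 24 libraries with terms for group and run, 13350 genes and 13 residual degrees of freedom. Adjusted p-values are Benjamini-Hochberg over all genes tested, with a threshold of 0.05. CPM values are scaled by TMM. Intervals at 95% and counting errors cover no more than the spread and the counts of these libraries.

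Named were the 12 largest rises and falls among called genes of a mean log2 CPM of at least 2 with no overlap between groups and over 3 counts in each group, up to 4 genes of each of 32 lists by adjusted p, 6 genes given as values (Tlr9, Unc93b1, Myd88, Tnf, Actb and Csf1r), and for the difference between lines the 5 largest on each side. Members and lists were chosen with earlier results of these data known. Promoter windows came from RefSeq, build GRCm38.p6, for 101 of the 141 genes named by the rule. Alternatives were DESeq2 1.42.0, other size factors, other low-count filters, a replicate block, other sets of libraries and leaving out each library. The scripts were tested on simulated data. A few genes that the rule would name are not reported here.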

Additional observations from a re-analysis of the deposited data

Results flagged for a closer look

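The effect of the coating differed between the cell lines, by the test of the difference itself, for 1326 genes with a higher and 1041 genes with a lower log2 fold change in RAW-Blue than in K-Luc. Among the genes named, the difference, RAW-Blue minus K-Luc, was 3.59 for Itga3, 3.39 for Cth, 3.26 for Hecw2, 3.04 for Ccl7 and 2.82 for Id1. It was -2.46 for St6gal1, -2.64 for Hspb7, -2.75 for Copz2, -2.79 for Ldlrad4 and -4.21 for Pmepa1. The lines also differ in treatment time, so line and time cannot be told apart.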

How the results depend on the processing

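Counts of called genes moved most with the libraries in the fit. For the coating comparison edgeR called 3501 genes (1846 higher, 1655 lower) with the 4 compared libraries alone and 2929 (1520 higher, 1409 lower) without the untreated libraries, and 390 to 629 (238 to 451 higher, 152 to 178 lower) when 1 compared library was left out, where the lone sample of a group is assumed to vary like the other groups. DESeq2 called 1084. For the coating minus free CpG response the count was 0 to 2806 when 1 library was left out, 21 without a low-count filter, 30 with DESeq2, 1 with a replicate block and 1 with the 8 libraries of the 4 groups alone. For the difference between lines the genes called lower numbered 676 (without RAW-Blue SWNT/CpG replicate 2) to 1209 when 1 library was left out. Replicate numbers did not pair the compared samples (correlation of deviations -0.016), and the replicate block gave 1150 calls for the coating and 3144 for the line difference. Of 2261 gene-level values for 189 genes, 1970 kept direction and call, 232 lost the call, 53 gained one and 6 changed sign, all in genes not called: Hspa5 (-0.093 to 0.00564 over the fits without 1 library, positive without SWNT/CpG replicate 1), Tnfaip3 (-0.0994 to 0.155, negative without SWNT/CpG replicate 1 and, at -0.00604, without SWNT/LP replicate 1), Icosl (-0.0847 to 0.175, negative without SWNT/CpG replicate 2) and Nf1 (-0.0372 to 0.0097, positive without SWNT/LP replicate 2 and, at 0.00297, without SWNT/CpG replicate 2). Of 151 of these genes called, 81 were called in every fit without 1 compared library and 23 in none; the cause was not tested.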
